A study of Mus musculus with 14 samples.

Results

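The 35 genes described here are interferon-stimulated genes and cytosolic sensors of foreign or misplaced nucleic acid, taken by name from a list of well-known members of this response. All 35 of them were found by symbol or synonym among the 35275 genes of the expression table, and 33 passed the filter on low values; Mb21d1 and Oas3 did not. The RNA came from homogenized brown adipose tissue, labelled as brown adipocytes with no isolation step described, of 14 C57BL/6 mice aged 8 weeks. Every animal carried floxed Lrpprc alleles (LrpprcFF): in knockouts a Ucp1-Cre transgene, active in Ucp1-expressing brown adipocytes, removed Lrpprc, whereas controls carried no Cre. At a housing temperature of 22 °C there were 4 knockouts and 4 controls, and at 30 °C, thermoneutrality, there were 3 of each. Lrpprc encodes an RNA-binding protein that stabilises mitochondrial messenger RNA, and the question put to these genes was whether the loss of mitochondrial RNA sets off an interferon response.

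Cells detect RNA in the cytosol through the helicases RIG-I (Ddx58) and MDA5 (Ifih1) and detect DNA through cGAS (Mb21d1) and its partner STING (Tmem173). Both routes lead to the release of type I interferon, which acts on its receptor to bring Stat2 and Irf9 together in a complex that binds interferon-stimulated response elements upstream of target genes. Nucleic acid escaping from damaged mitochondria can enter these routes, so such escape could raise the target genes. Macrophages and lymphocytes in adipose tissue also transcribe many of these genes, and in RNA from whole tissue a change in the number of cells of a type and a change in RNA per cell cannot be told apart.

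Sequence upstream of the genes was examined because these genes share a response element. The mouse RefSeq promoter windows (GRCm38.p6, 250 bases before to 50 after each start) held an entry for 26 of the 35 genes. The letters GAAANNGAA, the core of the interferon-stimulated response element, were searched for on both strands, and overlapping matches were counted separately. They occurred in 14 of the 26 genes (53.8%), or 14 of their 30 windows (46.7%), and in 8.56% of all 32851 windows. The letters TTCNNNGAA, those of the interferon-gamma-activated sequence, occurred in 6 of the 26 genes (23.1%), or 6 of their 30 windows, and in 8.3% of all windows. The windows of Psmb8 and Bst2 each hold 1 match of these second letters, which is not marked. A match describes the letters and is no evidence of a bound site. The stretches of 120 bases below are shown because the first 5 hold matches of the response element core, which alone is in capitals, and belong to genes whose values are given in every animal or in every group, while the last 2, Irf7 and Psmb8, hold no match of that core and moved with housing temperature in the same direction as most of the others. Each is written along the strand of its gene, and a run of capitals can also be the core read on the opposite strand. Isg15 lies at chr4:156200827-156200946 (minus strand), Ifit1 at chr19:34640736-34640855 (plus), Ifit3 at chr19:34583344-34583463 (plus), Bst2 at chr8:71537536-71537655 (minus), Rsad2 at chr12:26456508-26456627 (minus), Irf7 at chr7:141266425-141266544 (minus) and Psmb8 at chr17:34198075-34198194 (plus).
Isg15: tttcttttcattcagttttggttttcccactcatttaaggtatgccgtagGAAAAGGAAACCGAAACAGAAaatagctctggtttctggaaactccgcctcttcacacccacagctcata
Ifit1: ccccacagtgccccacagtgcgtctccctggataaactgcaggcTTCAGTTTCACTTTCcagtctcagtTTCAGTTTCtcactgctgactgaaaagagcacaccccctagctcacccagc
Ifit3: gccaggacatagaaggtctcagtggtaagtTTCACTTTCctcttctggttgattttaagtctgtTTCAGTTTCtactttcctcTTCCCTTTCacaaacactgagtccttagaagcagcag
Bst2: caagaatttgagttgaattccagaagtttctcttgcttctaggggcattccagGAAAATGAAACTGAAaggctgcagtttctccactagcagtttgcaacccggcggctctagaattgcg
Rsad2: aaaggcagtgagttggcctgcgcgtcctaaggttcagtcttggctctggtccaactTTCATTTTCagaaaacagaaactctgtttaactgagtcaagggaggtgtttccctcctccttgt
Irf7: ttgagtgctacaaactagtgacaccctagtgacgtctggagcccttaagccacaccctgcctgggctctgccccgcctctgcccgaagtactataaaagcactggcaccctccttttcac
Psmb8: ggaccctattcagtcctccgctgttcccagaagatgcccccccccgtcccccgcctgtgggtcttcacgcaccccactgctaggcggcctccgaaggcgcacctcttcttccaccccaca

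The authors deposited FPKM, in which fragments are divided by gene length and by library size. Low FPKM values differ by whole fragments, which put the libraries at 15.9 to 21.3 M fragments. Each library was divided by a factor that set the median nuclear gene level across libraries, and the resulting scaled FPKM are the levels given below unless another scale is named. Differences are log2 fold changes of scaled FPKM plus 1, which understates changes of weakly expressed genes, with limma p-values adjusted over 13079 genes and called at 0.05. Lrpprc itself was at 9.34 to 12.5 deposited FPKM in the knockouts and 23.2 to 47.2 in the controls at 22 °C (30.8% of the mean in controls, exact two-sided permutation p = 0.0286). The 30 °C animals were at 5.95 to 9.91 in the knockouts and 28.6 to 31.0 in the controls (27.0%, exact permutation p = 0.1, the smallest that 3 against 3 animals allow). The other cells of the tissue keep the gene, since the Ucp1 promoter drives Cre. Housing temperature was fully shared with the sex of the animals as their RNA shows it: Xist was at 9.01 to 18.4 deposited FPKM in all 6 animals at 30 °C and at most 0.0141 in the 8 at 22 °C, and Ddx3y, on the Y chromosome, was at 14.5 to 23.1 at 22 °C and at most 0.0244 at 30 °C. The identifiers of 2 of the 4 controls at 22 °C, animals 3 and 4, begin with R and those of all the others with E.

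The 35 genes spanned a wide range of levels. Ifi27, a small interferon-inducible membrane protein, was by far the most abundant, at group means of 890.2 to 1552 scaled FPKM. Bst2 (tetherin, which holds budding virus at the cell surface) followed at group means of 34.6 to 142. All others had group means of at most 31.7, and Mb21d1 and Oas3, at group means of at most 0.706 and 0.726, were the 2 lowest. The 10 brown adipocyte markers summed to 14400 to 19100 scaled FPKM in knockouts and 18700 to 24900 in controls at 22 °C, and markers of the labelled tissue were thus abundant in every library.

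Between knockouts and controls at 22 °C, none of the 33 tested genes passed an adjusted p under 0.05, where 1.97% of all genes tested did (258 of 13079). Only Tmem173 and Isg15 reached an unadjusted p under 0.05, where 2060 of all genes did. On FPKM as deposited, which lack the scaling and put the median of all genes at 0.24 and that of the members at 0.26, these 2 genes passed (0.57 and 0.71, limma adjusted p = 0.0302 and 0.0355). The share of all genes that passed on that scale is not given here. On the scaled values log2 fold changes ran from -0.27 for Ifi27 to 0.47 for Isg15, with 20 positive and 13 negative, and their median was 0.05 against 0.0024 over all genes. That median turned negative without control animal 1 (-0.07) or control animal 2 (-0.01), was 0.15 without control animal 4, and was 0.01 to 0.09 when any other single animal was left out. The single-gene 95% intervals of all 33 lay below a 2-fold increase. In a fit of recovered reads with limma voom, which does not add a pseudocount of 1 FPKM, this held for 25 of the 33.

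At 30 °C the only member called was Ifi27, which was lower in knockouts, where 14.1% of all genes tested passed, 8.82% higher and 5.28% lower. None was called higher on the scaled values, which does not show that none rose. On FPKM as deposited, where the median was 0.31 over all genes and 0.50 over the members, 8 members were higher in knockouts (Ddx58, Ifih1, Dhx58, Ifit2, Oas1a, Oas2, Ifi44 and Isg15, by 0.46 to 1.09) and Ifi27 did not pass. How many of all genes passed on the deposited scale is not given here, so the 8 have no background beside them. On the scaled values log2 fold changes ran from -0.53 for Ifi27 to 0.86 for Oas1a, with 25 positive and 8 negative, where 58.3% of all genes were positive. The median over the members was 0.23 against 0.06 over all genes. It was -0.01 without knockout animal 1, 0.13 without control animal 2, 0.15 without control animal 1, and 0.38 without either knockout animal 2 or control animal 3. An unadjusted p under 0.05 was reached by Ifi27, Oas1a, Oas2 and Ifi44, and by 3706 of all genes. Among the members, 26 of the 33 single-gene intervals lay below a 2-fold increase (23 with limma voom).

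**Figure D1:**
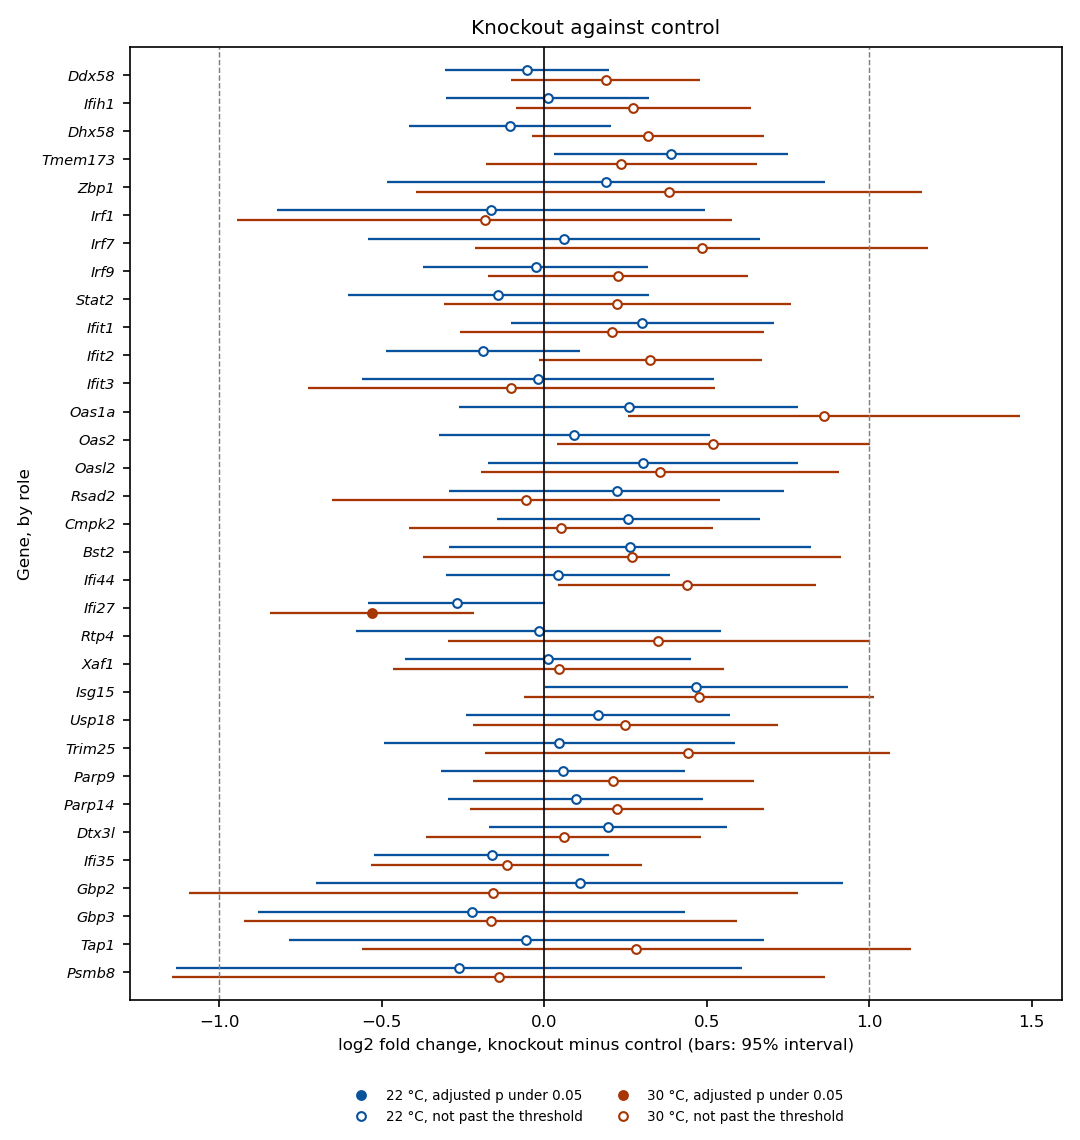
Log2 fold change of each tested gene, knockout minus control (horizontal axis), at 22 °C (blue, 4 against 4 animals) and at 30 °C (brown, 3 against 3), with genes listed by role from sensors at the top to antigen presentation at the bottom. Points are limma estimates, bars 95% intervals, filled points an adjusted p under 0.05, and dashed lines a 2-fold change; Ifi27 at 30 °C is the only filled point.

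Among the sensors, no RNA helicase passed between genotypes on the scaled values, although each was called higher in knockouts at 30 °C on FPKM as deposited. Ddx58 (RIG-I, which binds RNA with a 5' triphosphate) was at 4.76, 6.64, 6.37 and 6.45 scaled FPKM in controls and 4.87, 6.34, 5.56 and 6.38 in knockouts at 22 °C. In animals kept at 30 °C it was at 6.98, 6.75 and 8.76 in controls and 8.26, 8.88 and 8.79 in knockouts. The groups overlapped at both temperatures, with log2 fold changes of -0.05 (SE 0.12, limma adjusted p = 0.868) and 0.19 (SE 0.14, limma adjusted p = 0.401). Ifih1 (MDA5, which binds long double-stranded RNA) was at 1.76, 1.96, 2.5 and 2.92 in controls and 1.85, 2.28, 2.48 and 2.55 in knockouts at 22 °C, a near-complete overlap around equal means of 2.28 and 2.29. Its 95% interval there ran from -0.30 to 0.32 on the log2 scale. Those at 30 °C were at 2.36, 1.79 and 2.73 in controls and 3.72, 2.77 and 2.49 in knockouts, again overlapping, at 0.27 (SE 0.17, limma adjusted p = 0.314). Dhx58 (LGP2, a helicase that modulates the other two) was the single tested member whose knockouts at 30 °C all lay above the controls, at 3.35 to 4.19 against 2.2 to 3.2, but its log2 fold change of 0.32 had a limma adjusted p of 0.232. For comparison, 22.2% of all genes tested had knockouts wholly above controls at 30 °C.

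Of the DNA-sensing pair, Mb21d1 was the lower. Mb21d1 (cGAS, which makes the messenger cGAMP on meeting DNA) was at 0.249, 0.153, 0.327 and 0.517 scaled FPKM in controls and 0.193, 0.403, 0.338 and 0.404 in knockouts at 22 °C. Levels at 30 °C were 0.358, 0.4 and 0.441 in controls and 1.13, 0.448 and 0.539 in knockouts. The genotypes overlapped at 22 °C, and at 30 °C the knockouts lay above the controls, 2 of them by a narrow margin, but the gene was too low to be tested. Tmem173 (STING, the receptor of cGAMP) was at 1.0, 1.29, 1.49 and 1.84 in controls and 2.63, 2.55, 1.63 and 1.82 in knockouts at 22 °C. Animals 1 and 2 of these knockouts lay above every control and the other two within the control range, giving 0.39 (SE 0.17, limma unadjusted p = 0.0363, adjusted p = 0.275). With housing at 30 °C it was at 5.42, 6.07 and 7.42 in controls and 9.01, 5.51 and 8.61 in knockouts, which overlapped (0.24, limma adjusted p = 0.467). Zbp1, a sensor of nucleic acid in the left-handed Z form, was under 1 FPKM in all 8 animals at 22 °C, at 0.214, 0.186, 0.415 and 0.389 in controls and 0.425, 0.618, 0.412 and 0.477 in knockouts. At 30 °C it was at 0.838, 0.958 and 2.8 in controls and 5.25, 0.817 and 1.68 in knockouts, where 1 animal of each genotype stood above the others (limma adjusted p = 0.536).

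The transcription factors of the response showed the same pattern of overlap. Irf7, the factor that amplifies type I interferon, was at 2.65, 4.48, 7.68 and 8.92 scaled FPKM in controls and 5.5, 5.38, 6.49 and 5.58 in knockouts at 22 °C. The 2 lowest and the 2 highest values were controls, and the knockouts lay close together between them (0.06, SE 0.28, limma adjusted p = 0.941). At 30 °C it was at 14.3, 12.7 and 20.4 in controls and 31.9, 16.6 and 20.2 in knockouts (0.48, SE 0.32, limma adjusted p = 0.364). Stat2 was at 6.38, 6.41, 7.99 and 10.9 in controls and 6.12, 7.55, 7.0 and 7.13 in knockouts at 22 °C, and at 9.43, 8.37 and 14.6 in controls and 18.8, 10.1 and 10.1 in knockouts at 30 °C. Its partner Irf9 was at 5.63, 6.49, 5.68 and 8.5 in controls and 6.54, 6.56, 6.15 and 6.19 in knockouts at 22 °C, and at 7.63, 8.94 and 11.6 against 14.4, 8.5 and 10.8 at 30 °C. Both overlapped at each temperature, with limma adjusted p-values of 0.468 or more. Irf1, which responds to interferon gamma as well as to type I interferon, was at 13.7, 13.2, 16.6 and 23.3 in controls and 10.6, 19.6, 14.6 and 14.3 in knockouts at 22 °C. At 30 °C it was at 23.3, 23.2 and 39.9 in controls and 47.2, 18.4 and 16.6 in knockouts, with 1 knockout above every control and the other two below every control.

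Of the 13 tested antiviral effectors, several of which act on viral RNA, nucleotides or particles, 0 were called at 22 °C. At 30 °C 1 was called, Ifi27, which was lower. Of all genes tested, 1.97% were called at 22 °C, and 14.1% at 30 °C, 5.28% lower. Ifit1, which binds RNA that lacks the host cap structure, was at 1.65, 1.4, 1.64 and 2.39 scaled FPKM in controls and 2.68, 2.74, 1.55 and 2.75 in knockouts at 22 °C. In this gene 3 of 4 knockouts lay above every control, but the fourth lay below all except 1 of them (0.30, SE 0.19, limma adjusted p = 0.475). At 30 °C Ifit1 was at 2.73, 2.67 and 3.92 in controls and 5.36, 2.65 and 3.49 in knockouts (0.21, limma adjusted p = 0.581). Ifit3, which binds Ifit1, was at 3.13, 4.0, 5.25 and 7.76 in controls and 5.09, 6.29, 3.38 and 4.54 in knockouts at 22 °C, with the knockouts inside the control range. At 30 °C it was at 10.7, 8.49 and 15.6 in controls and 13.2, 7.44 and 11.4 in knockouts. The log2 fold changes of Ifit3 were -0.02 and -0.10, with limma adjusted p-values of 0.983 and 0.859.

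Oas1a, an oligoadenylate synthetase that activates RNase L on binding double-stranded RNA, had the largest positive log2 fold change of the 33 tested genes at 30 °C. It was at 1.77, 1.84 and 3.02 scaled FPKM in controls and 8.31, 2.4 and 4.99 in knockouts there, with 2 knockouts above every control and the remaining one within their range (0.86, SE 0.28, 95% interval 0.26 to 1.46, limma adjusted p = 0.0568). It was called without control animal 3 at 30 °C (1.04, limma adjusted p = 0.049), without knockout animal 2 (1.24, limma adjusted p = 0.00328) and when libraries were set to the same total over nuclear genes (0.97, limma adjusted p = 0.0237). At 22 °C it was at 0.818, 0.623, 0.703 and 0.816 in controls and 0.828, 1.36, 0.821 and 1.38 in knockouts, wholly above the controls by a margin of 0.821 against 0.818, at 0.26 (limma adjusted p = 0.655). Oas2 was at 1.4 to 1.8 in controls and 1.63 to 4.71 in knockouts at 30 °C (0.52, limma adjusted p = 0.143). Oas3, which was not tested, was at 0.106 to 0.414 in controls and 0.393 to 1.1 in knockouts at 30 °C, and Oasl2 at 3.58 to 6.54 and 4.88 to 10.7. Members of the Oas, Ifit and Gbp families have close relatives next to them in the genome, and how reads shared between relatives were counted is not given in the sources used here, so the split among relatives is uncertain.

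Rsad2 (viperin, which makes a chain-terminating nucleotide) and its neighbour Cmpk2, a mitochondrial nucleotide kinase, stood apart from most members in their levels across groups. Rsad2 was at 9.02, 7.0, 6.63 and 17.8 scaled FPKM in controls and 9.83, 12.4, 10.7 and 11.6 in knockouts at 22 °C, and at 6.19, 6.79 and 8.24 in controls and 7.69, 7.93 and 4.94 in knockouts at 30 °C. Genotypes overlapped at both temperatures (0.22 and -0.06, limma adjusted p = 0.706 and 0.922). The corresponding differences for Cmpk2 were 0.26 and 0.05. Bst2 was at 26.7, 27.4, 39.7 and 44.8 in controls and 42.3, 41.6, 42.8 and 36.7 in knockouts at 22 °C, and at 90.8, 92.2 and 156.2 against 214.5, 86.5 and 124.0 at 30 °C, all overlapping. Ifi44, Rtp4 and Xaf1 did not pass at either temperature.

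Ifi27 was the exception. It was at 1143, 1345 and 1379 scaled FPKM in controls and 859.2, 913.9 and 897.5 in knockouts at 30 °C. Every knockout lay below every control, at a mean of 890.2 ± 28.1 against 1289 ± 127.4 (SD, n = 3 each; 69.1%), and limma gave -0.53 on the log2 scale (SE 0.15, adjusted p = 0.0295). At 22 °C it was at 1751, 1722, 1345 and 1389 in controls and 1518, 1201, 1252 and 1170 in knockouts, overlapping by 1 knockout, at -0.27 (limma adjusted p = 0.322). The call at 30 °C was lost with FPKM as deposited, with quantile normalization, with the same total over nuclear genes, without a filter, in a fit to the compared groups alone, without the highest-macrophage animal of each 30 °C group and when knockout animal 1, knockout animal 3, control animal 2 or control animal 3 was left out. Ifi27 moved in the same direction as the sum of the 10 brown adipocyte markers, at 7470 to 9210 in knockouts and 13800 to 17300 in controls at 30 °C. Of the single markers 5 were called lower there and 0 higher, with log2 fold changes from -1.31 to 0.98. The part of those cells in the Ifi27 difference was not tested.

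**Figure D2:**
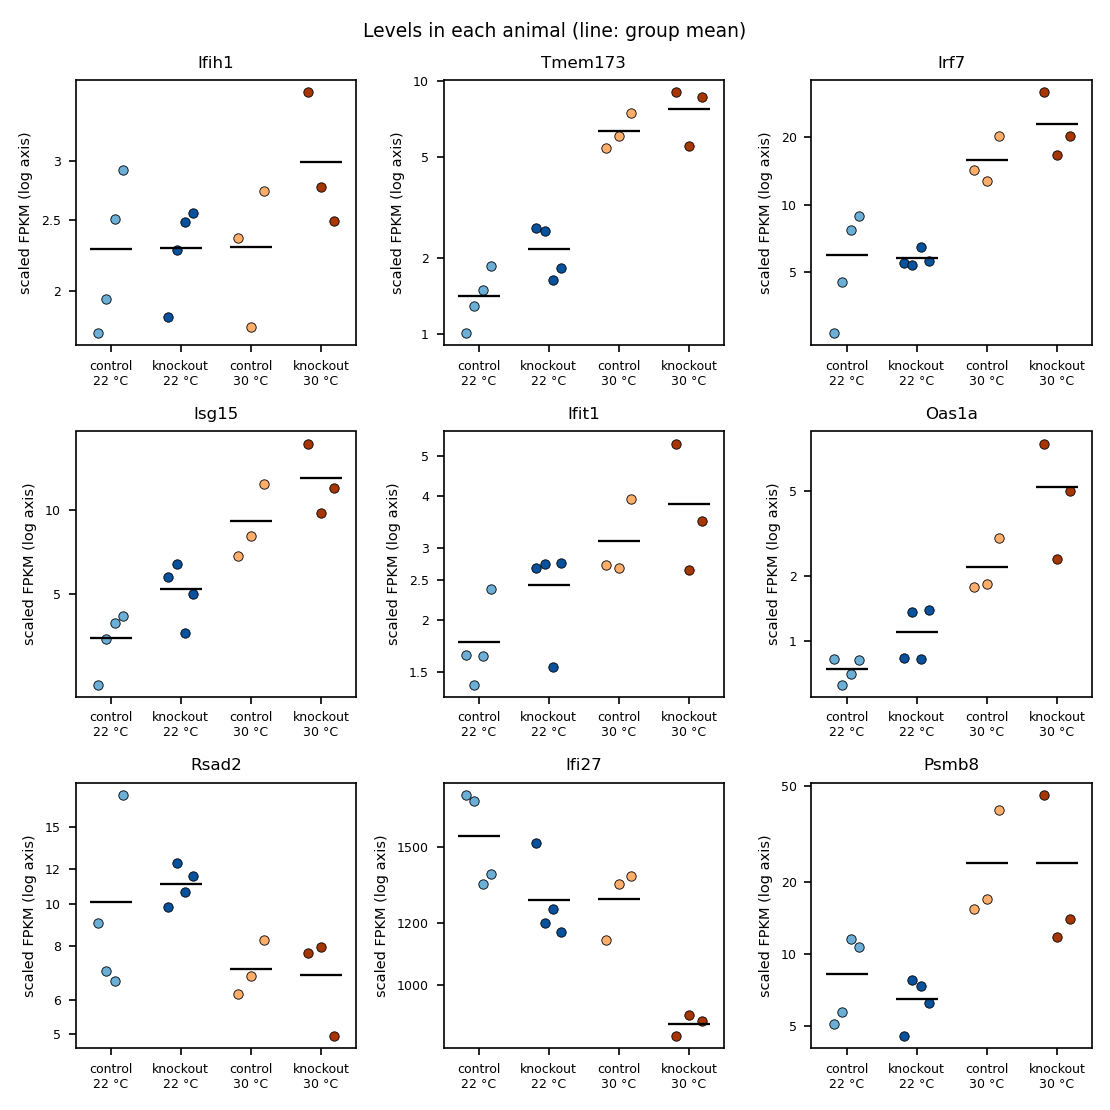
Level of 9 of the genes in each of the 14 animals, in scaled FPKM on a log axis, with a point per animal and a line at each group mean. Genotypes overlap in 8 of the 9 panels at 30 °C, the exception being Ifi27, and the 2 temperatures separate in Tmem173, Irf7, Isg15, Oas1a and Psmb8.

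The modifiers act on other proteins of the response. Isg15, a ubiquitin-like protein that is attached to many targets after interferon, was at 2.35, 3.44, 3.94 and 4.15 scaled FPKM in controls and 5.74, 6.42, 3.62 and 5.01 in knockouts at 22 °C. All knockouts but 1 lay above every control, at 0.47 (SE 0.22, 95% interval 0.00 to 0.93, limma unadjusted p = 0.0491, adjusted p = 0.315). At 30 °C it was at 6.86, 8.06 and 12.5 in controls and 17.4, 9.76 and 12.1 in knockouts, a similar difference of 0.48 (SE 0.25, limma adjusted p = 0.235) with overlap. Usp18, which removes Isg15 and restrains the interferon receptor, differed by 0.17 and 0.25, with limma adjusted p-values of 0.722 and 0.502. Trim25, a ubiquitin ligase that acts on RIG-I, had its lowest and its highest level at 22 °C in controls, at 6.44 and 20.3, around knockouts at 11.0 to 12.1. The ADP-ribosyltransferases Parp9 and Parp14, the Parp9 partner Dtx3l, and Ifi35 differed by -0.16 to 0.22 across both temperatures, with none called.

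The 4 members that respond to interferon gamma or serve antigen presentation had median differences of -0.14 at 22 °C and -0.15 at 30 °C, and 0 passed. The shares of all genes that passed were 1.97% and 14.1%. Gbp2, a guanylate-binding protein that attacks the vacuoles of intracellular microbes, was at 10.4, 10.9, 14.2 and 11.4 scaled FPKM in controls and 9.63, 15.4, 11.3 and 15.2 in knockouts at 22 °C. Gbp2 at 30 °C was at 14.9, 15.9 and 48.7 in controls and 41.9, 15.4 and 12.7 in knockouts, a single high animal in each genotype. Psmb8, a catalytic subunit of the immunoproteasome, was at 5.13, 5.77, 11.6 and 10.7 in controls and 4.55, 7.78, 7.36 and 6.25 in knockouts at 22 °C, and at 15.5, 17.1 and 39.7 in controls and 46.0, 11.8 and 14 in knockouts at 30 °C. Its log2 fold changes were -0.26 and -0.14, and its wide 95% interval at 30 °C, -1.14 to 0.87, shows how little these 3 against 3 animals limit it. Gbp3 and the peptide transporter subunit Tap1 also overlapped between genotypes at both temperatures.

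Within each group, 1 animal tended to be the highest for most of the genes. Control animal 3 at 30 °C was the highest of its group for 34 of the 35 genes, knockout animal 1 at 30 °C for 31, control animal 4 at 22 °C for 26 and knockout animal 2 at 22 °C for 21. These were also the 4 animals with the highest summed RNA of 12 macrophage markers in their groups, at 477.0, 2018, 111.3 and 244.4 scaled FPKM. At 30 °C the marker sum was 714 to 2020 in knockouts and 150.3 to 477 in controls, and 10 of the 12 markers were higher in knockouts. At 22 °C it was 118 to 244 in knockouts, wholly above the 73.2 to 111 in controls. There 0 of the 12 passed, 10 had positive differences, 5 had a limma unadjusted p under 0.05, and the median log2 difference was 0.55. None of the 12 was listed at 0 in any group. T and NK cell marker sums peaked in the same animals, except in knockouts at 30 °C, where animal 3 (42.7) exceeded animal 1 (29.2). B and plasma cell sums peaked in the same animals in both control groups but in neither knockout group. Skeletal muscle markers summed to 21.4 in control animal 3 at 30 °C, against 13250 and 4458 in the other controls there. The ratio of the highest to the lowest animal had a median over the 35 genes of 1.87 in knockouts at 30 °C and 1.49 in knockouts at 22 °C, and it was at least 2 for 14 and 2 genes. In controls the order was the opposite, with medians of 1.61 at 30 °C and 1.76 at 22 °C, and 7 and 11 genes. This ratio can only grow as animals are added, and groups held 4 animals at 22 °C and 3 at 30 °C. The 2 temperatures are therefore not compared like for like. Without the highest-macrophage animal of each 30 °C group, an alternative chosen after the data were seen, 0 of 31 members passed between genotypes at 30 °C, and the median difference was 0.19 against 0.05 over all genes. Without only the knockout of that pair it was -0.01, and without only the control 0.38. The part of macrophages, lymphocytes or muscle in the levels of the 35 genes was not tested.

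**Figure D3:**
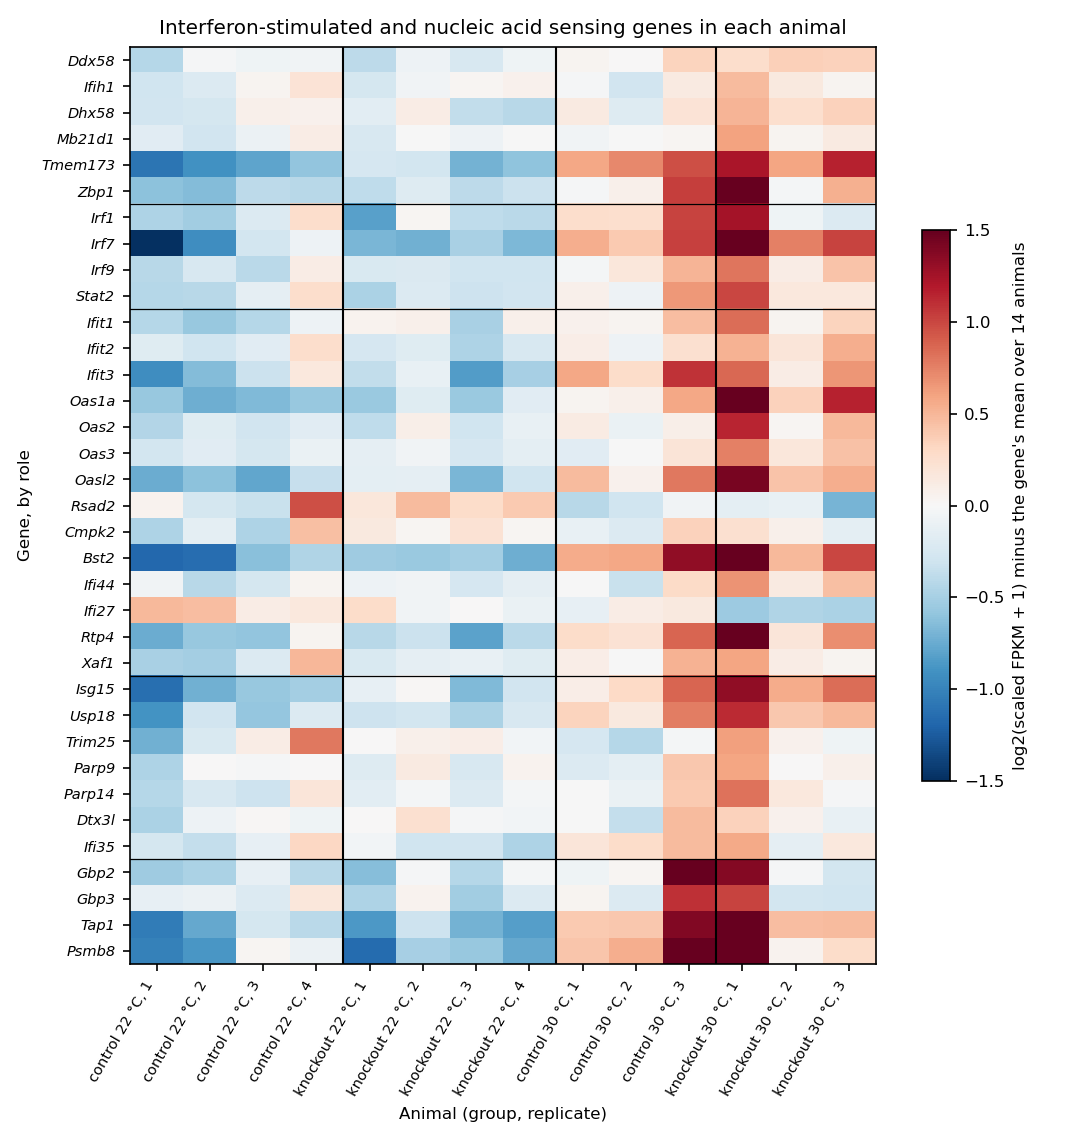
Level of the 35 genes (rows, grouped by role) in each of the 14 animals (columns, grouped by genotype and temperature), as log2(scaled FPKM + 1) minus the gene's mean over all animals, red for higher and blue for lower, with colours saturating at the ends of the scale. Control animal 3 and knockout animal 1 at 30 °C are red in nearly every row, the animals at 22 °C are mostly blue, and Rsad2 and Ifi27 run against that pattern.

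The controls at 22 °C also divided by the first letter of their identifiers. Both R controls lay above both E controls for 19 of the 35 genes and below them for 1, Ifi27. Over all genes tested the shares were 31.1% and 25.5%. Irf7 was at 7.68 and 8.92 in the R controls and at 2.65 and 4.48 in the E controls. The R controls were also higher in summed skeletal muscle markers, at 6372 and 3788 against 548.9 and 421.0, and in T and NK cell markers, at 5.15 and 5.67 against 2.18 and 3.32. Plasmacytoid dendritic cell sums were higher in them too. Macrophage sums overlapped, at 80.1 and 111.3 against 73.2 and 101.0, as did B and plasma cell and endothelial sums. Brown adipocyte and neutrophil sums were lower in both R controls. The part of any of these cells was not tested. Lrpprc was lower in the R controls, at 36.1 and 25.3 scaled FPKM, than in the E controls, at 57.3 and 50.6. Without the R controls, so that all animals had E identifiers, 30 of the 33 log2 fold changes between knockouts and controls at 22 °C were positive, where 55.1% of all genes were, and the median was 0.23 against 0.04 over all genes. The smallest p in that fit was that of Ifi27, with a negative difference (-0.44, limma unadjusted p = 0.00584, adjusted p = 0.102). Isg15 then stood at 0.66, Irf7 at 0.59, Tmem173 at 0.55 and Trim25 at 0.51 (limma adjusted p = 0.203, 0.224, 0.17 and 0.181). None of the 33 passed in that fit, where 2.21% of all genes did, and 7 had an unadjusted p under 0.05, as did 2567 of 12997 genes. What the letters stand for is not given in the sources used here, and R identifiers occur in controls at 22 °C alone.

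More of these genes were called between housing temperatures than between genotypes, in a comparison in which sex differed along with temperature. In controls 12 of the 33 tested genes were lower at 22 °C than at 30 °C and 0 were higher, where 20.6% of all genes were lower and 18.2% higher. In knockouts 20 were lower and 1, Ifi27, was higher, where 29.4% of all genes were lower and 21.8% higher. Of the genes lower at 22 °C, 11 were so in both genotypes, which is 91.7% of those in controls and 55.0% of those in knockouts. The share of all genes lower in both genotypes is not given here, so this overlap has no background beside it. The median log2 difference, 22 °C minus 30 °C, was -0.42 in controls and -0.70 in knockouts, against -0.05 and -0.07 over all genes. Without knockout animal 1 at 30 °C the median in knockouts was -0.46, and without the 2 R controls that in controls was -0.64. Macrophage marker sums were likewise lower at 22 °C in both genotypes, as given above. T and NK cell marker sums were 2.18 to 5.67 at 22 °C and 8.79 to 30.0 at 30 °C in controls, and 3.05 to 5.31 and 10.3 to 42.7 in knockouts, with 6 and 9 of 10 tested markers called lower. B and plasma cell sums were 2.1 to 7.25 and 13.6 to 37.4 in controls, and 3.32 to 7.02 and 12.9 to 39.7 in knockouts. Most brown adipocyte markers went the other way. Of the 10, 5 were called higher and 1 lower at 22 °C in controls, and 8 higher and 0 lower in knockouts. Temperature, sex and these cells cannot be told apart here.

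The 11 genes lower at 22 °C in both genotypes covered every role. They were Tmem173 among the sensors, Irf7 among the factors, Ifit3, Oas1a, Oasl2, Bst2 and Rtp4 among the effectors, the modifiers Isg15 and Usp18, and Tap1 and Psmb8 of antigen presentation. Bst2 had the largest difference in controls, at -1.66 (SE 0.28, limma adjusted p = 0.00111), and Irf7 in knockouts, at -1.78 (SE 0.30, limma adjusted p = 0.000494). Tmem173 differed by -1.60 in controls and by -1.45 in knockouts (limma adjusted p = 0.000145 and 8.41e-05), and its 8 animals at 22 °C, at 1.0 to 2.63, lay wholly below the 6 at 30 °C, at 5.42 to 9.01. The RNA sensor Ifih1 did not share in this, at -0.01 in controls and -0.27 in knockouts (limma adjusted p = 0.969 and 0.159). Rsad2 pointed the other way, at 0.37 and 0.65 (limma adjusted p = 0.274 and 0.0511), and Ifi27 was higher at 22 °C in knockouts, at 0.52 (SE 0.14, limma adjusted p = 0.0065). Of tested members with the response element core in their window, 5 of 13 were lower at 22 °C in controls and 7 of 13 in knockouts. For those with a window but no match the counts were 4 of 11 and 7 of 11, and for the 9 without a window 3 and 6. The shares of all genes were 20.6% and 29.4%. Between genotypes at 30 °C the median differences of these 3 sets were 0.23, 0.06 and 0.25, against 0.06 over all genes. Differences between the sets were not tested. Of the genes printed above, Irf7 and Psmb8 with no match of the core differed by -1.36 and -1.38 in controls (limma adjusted p = 0.00443 and 0.0247). Of those with matches, Bst2 differed by -1.66, Isg15 by -1.16, Ifit3 by -1.08 and Ifit1 by -0.57 (limma adjusted p = 0.00111, 0.00268, 0.00836 and 0.0415). Rsad2, also with a match, was at 0.37. The differences between these genes were not tested.

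**Figure D4:**
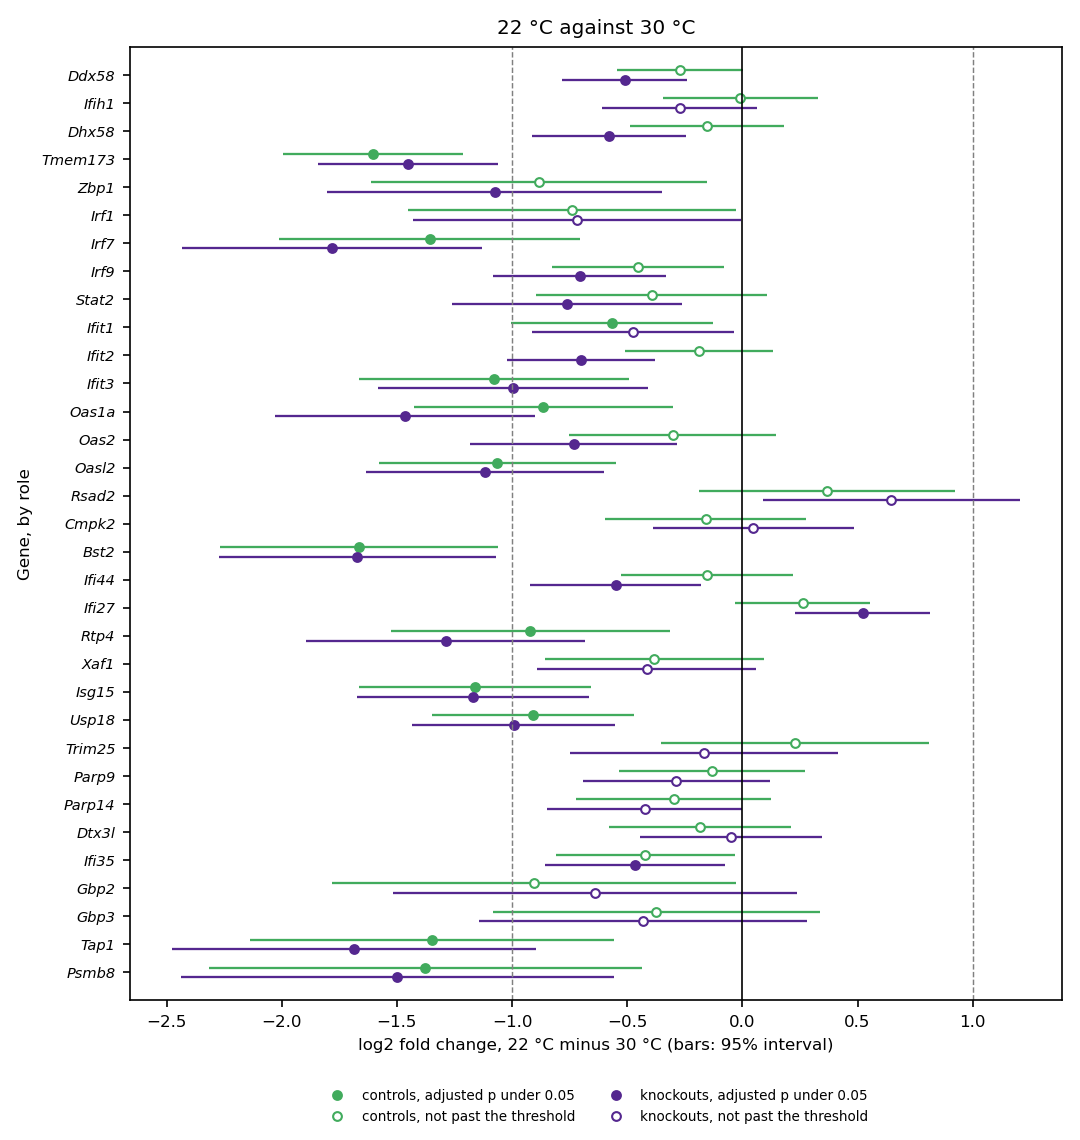
Log2 fold change of each tested gene, 22 °C minus 30 °C (horizontal axis), in controls (green, 4 against 3 animals) and knockouts (purple, 4 against 3), with genes listed by role. Points are limma estimates, bars 95% intervals and filled points an adjusted p under 0.05; 30 of 33 points lie below 0 in each genotype, and Rsad2 and Ifi27 lie above it in both.

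The test of the difference between the knockout effects at the 2 temperatures called 0 of the 33 genes and 0 of all genes tested (0.0%), while 1694 of all genes had an unadjusted p under 0.05. Among the members only Ifit2 did, at -0.19 at 22 °C and 0.33 at 30 °C, a difference of -0.51 (SE 0.21, limma unadjusted p = 0.0297, adjusted p = 0.328). A dependence of the knockout effect on temperature was therefore not shown for any member.

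The interferons themselves were barely or not detected. Ifnb1, Ifna1 and Ifna2 were listed at 0 in all 14 libraries. Ifna4 was above 0 in 1 knockout at 30 °C, at 0.075 scaled FPKM, and Ifng was at most 0.334 in any animal. The receptor chains Ifnar1, at group means of 16.1 to 18.4, and Ifnar2, at 18.6 to 26.8, were expressed in all groups and were not called between genotypes (limma adjusted p of 0.212 or more). None of the 5 tested genes of this list of 15 interferons and receptors passed in either genotype comparison. The shares of all genes that passed were 1.97% at 22 °C and 14.1% at 30 °C.

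Upstream and downstream genes of the pathway changed in part, mostly at 30 °C. Of 17 signalling genes, 1 was higher in knockouts at 22 °C and 4 at 30 °C, and none was lower, beside 1.97% of all genes called at 22 °C and 8.82% called higher at 30 °C. Jak1, the kinase shared by the interferon receptors and many cytokine receptors, was higher at both, at 23.1, 23.1, 20.6 and 19.9 scaled FPKM in controls and 29.4, 32.4, 25.7 and 29.9 in knockouts at 22 °C and at 18.6, 16.9 and 19.5 against 23.1, 26.1 and 28.6 at 30 °C. All knockouts lay above all controls, at 0.42 (SE 0.10, limma adjusted p = 0.0457) and 0.47 (SE 0.11, limma adjusted p = 0.0151). The 22 °C call was lost in 13 of 22 alternatives and the 30 °C call in 3 of 20. The other three were Irf5, Irf8 and Ikbke, genes of myeloid cells or of inflammatory signalling. Irf5 was at 3.06, 3.42 and 7.32 in controls and 25.2, 10.5 and 14.2 in knockouts at 30 °C (1.64, SE 0.35, limma adjusted p = 0.00969), Irf8 at 3.65, 4.01 and 8.72 against 30.3, 10 and 15.9 (1.56, limma adjusted p = 0.0165) and Ikbke at 0.647, 0.621 and 0.973 against 4.11, 1.48 and 2.38 (1.01, limma adjusted p = 0.00977). The call of Irf8 was lost in 4 of 20 alternatives and that of Ikbke in 1 of 15. In all 3 of these genes knockout animal 1 and control animal 3 were the highest of their 30 °C groups, as they were in the macrophage marker sums, and the part of macrophages in these differences was not tested. Mavs, the adaptor of RIG-I and MDA5 on the outer mitochondrial membrane, was at 30.7 to 44.6 in knockouts and 47.6 to 50.4 in controls at 30 °C (-0.48, limma adjusted p = 0.125).

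Among 11 tested endosomal and other nucleic acid sensors, 2 were higher in knockouts at 30 °C (8.82% of all genes were) and 0 at 22 °C. Unc93b1, the chaperone of endosomal Toll-like receptors, was at 22.0, 22.6 and 39.8 scaled FPKM in controls and 98.0, 42.3 and 53.5 in knockouts (1.13, SE 0.29, limma adjusted p = 0.021). Zc3hav1, which binds CpG-rich viral RNA, was at 6.44, 5.0 and 7.71 against 10.5, 9.01 and 9.59 (0.55, limma adjusted p = 0.0371). Both were wholly above controls. Of 17 tested genes that remove self nucleic acid or restrain the signal, 2 were higher and 2 lower in knockouts at 30 °C, where 8.82% and 5.28% of all genes were. Dnase2a, the lysosomal DNase, rose by 0.65 and Rnf125, a ubiquitin ligase that acts on RIG-I, by 0.87 (limma adjusted p = 0.0475 and 0.038). Rnaseh2c, a subunit of the RNase that removes RNA from DNA hybrids, fell from 44.0, 47.0 and 47.0 in controls to 28.1, 23.9 and 25.8 in knockouts (-0.80, limma adjusted p = 0.0222). Supv3l1, the helicase of the complex that degrades mitochondrial RNA, fell from 16.9, 19.4 and 17.6 to 10.1, 12.6 and 12.4 (-0.59, limma adjusted p = 0.0143), while its nuclease partner Pnpt1 was at 6.57 to 8.3 and 7.26 to 8.06 (0.05, limma adjusted p = 0.89). The call of Dnase2a was lost in 13 of 19 alternatives, and among 20 alternatives that of Rnf125 was lost in 10, those of Rnaseh2c and Zc3hav1 in 8 each, that of Supv3l1 in 5 and that of Unc93b1 in 4.

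Of 52 tested further interferon-stimulated genes, 1 was higher in knockouts at 22 °C and 4 were higher and 1 lower at 30 °C. Of all genes, 1.97% were called at 22 °C, and 8.82% were higher and 5.28% lower at 30 °C, so these counts lie near or under the background. Oasl1, a relative of the oligoadenylate synthetases that restrains Irf7 translation, was the one at 22 °C, at 0.353, 0.567, 0.684 and 0.649 scaled FPKM in controls and 2.88, 2.14, 1.06 and 1.36 in knockouts. The groups were separate at 22 °C (0.83, SE 0.19, limma adjusted p = 0.0457) and at 30 °C, where controls were at 1.46, 1.59 and 1.58 and knockouts at 4.4, 2.23 and 3.33 (0.73, limma adjusted p = 0.045). These calls were lost in 12 of 21 and 13 of 19 alternatives, although the estimate stayed between 0.67 and 1.65 at 22 °C. Cxcl10, a chemokine induced by both classes of interferon, was at 2.11, 1.53, 3.89 and 1.63 in controls and 9.05, 10.8, 4.62 and 9.02 in knockouts at 22 °C, again separate (1.51, SE 0.37, limma adjusted p = 0.0543), and was called in 9 of 22 alternatives. At 30 °C it overlapped, at 4.53, 3.17 and 8.89 against 13.4, 4.65 and 3.94. Eif2ak2 (PKR, a kinase activated by double-stranded RNA) was at 3.02 to 5.81 in knockouts and 5.62 to 6.18 in controls at 22 °C (-0.24, limma adjusted p = 0.452).

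The largest difference in that list went down. Ifi27l2a, a relative of Ifi27, was at 959.7, 983.6 and 1488 scaled FPKM in controls and 373.3, 189.0 and 269.9 in knockouts at 30 °C, a mean of 24.2% of control (-2.06, SE 0.30, limma adjusted p = 0.00135), and passed in all 20 alternatives. At 22 °C it was at 349.8, 304.8, 587.5 and 314.7 in controls and 235.7, 217.5, 183.0 and 136.3 in knockouts, wholly below (-0.98, limma adjusted p = 0.0756). The others that rose at 30 °C, beside Oasl1, were Slfn2 (1.15), Ifi207 (1.0) and Shisa5 (0.71), with limma adjusted p-values of 0.0273, 0.0149 and 0.0192, lost in 6 of 20, 5 of 19 and 6 of 20 alternatives. All 18 genes of MHC class I presentation were tested, and 0 passed between genotypes at either temperature, where 1.97% and 14.1% of all genes did. Between temperatures, 12 were lower at 22 °C than at 30 °C in controls and 12 in knockouts, where 20.6% and 29.4% of all genes were.

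**Figure D5:**
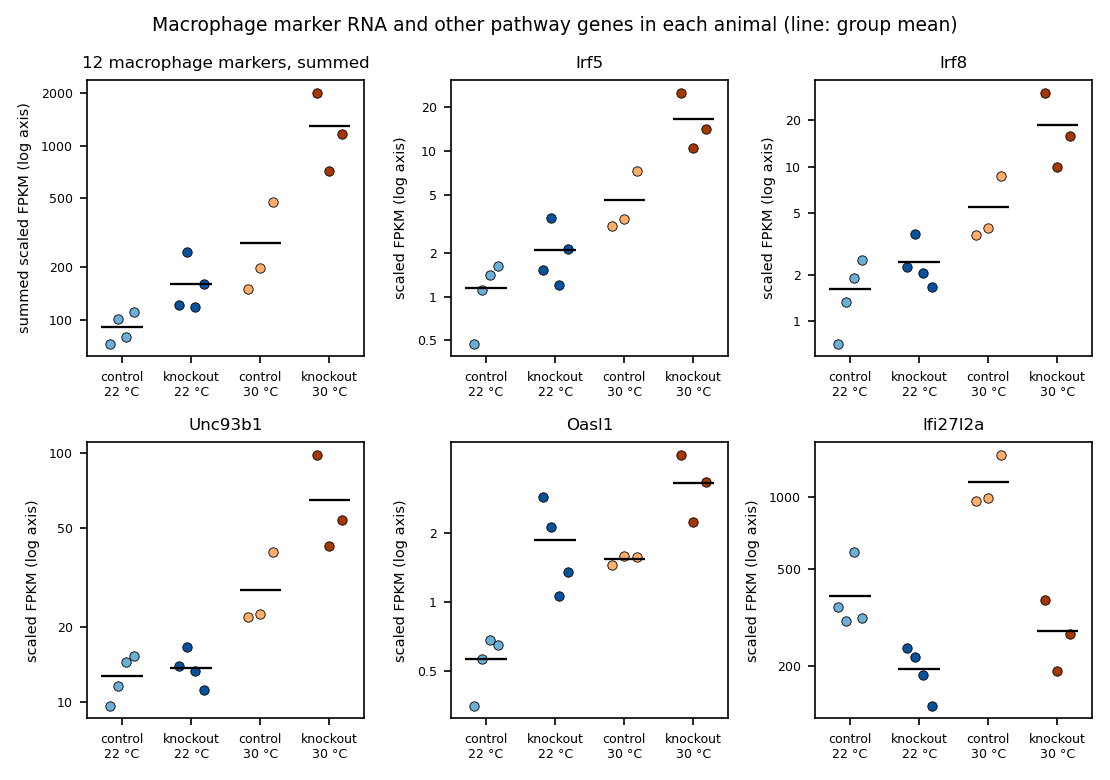
Summed scaled FPKM of 12 macrophage markers and scaled FPKM of Irf5, Irf8, Unc93b1, Oasl1 and Ifi27l2a in each of the 14 animals, on log axes, with a line at each group mean. At 30 °C the knockouts lie wholly above the controls in every panel except Ifi27l2a, where they lie wholly below. At 22 °C the genotypes overlap in Irf5, Irf8 and Unc93b1.

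Markers of other cells were compared because each could bring in transcripts of this response. At 30 °C the 12 T and NK cell markers summed to 10.3 to 42.7 scaled FPKM in knockouts and 8.79 to 30.0 in controls, with Il7r the only one called, and the 8 B and plasma cell markers summed to 12.9 to 39.7 and 13.6 to 37.4, with Cd22 the only one called. The 8 neutrophil markers summed to at most 11.3 in any animal, Elane was lower in knockouts at 30 °C, and Retnlg and Ly6g were listed at 0 in all controls at 22 °C. Of 6 markers of plasmacytoid dendritic cells, the main producers of type I interferon, 5 stayed under 1 in every animal, and the sixth, Cox6a2, is also a gene of skeletal muscle, whose markers ran from 21.4 to 13300 among the controls at 30 °C. The 8 endothelial markers summed to 815 to 890 and 448 to 487, but only Cldn5 was higher (2.39, called) and the other 7 had negative differences, with a median over the 8 of -0.23. At 30 °C 5 of 10 brown adipocyte markers were lower in knockouts (Ucp1, Cidea, Adipoq, Fabp4 and Cox8b). At 22 °C the only marker of all these lists that passed was Adipoq, which was lower. These single genes were named after their values were seen.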

How the data were processed

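The authors deposited FPKM per gene and animal; the build is mm9 per the submitters' processing notes, and the aligner, the counting tool and the use of strand are not given in the sources used here. Gene identifiers were named with GENCODE M21 (34490 of 35275 matched). Depth was recovered from whole-read steps (81.0% of low values whole within 0.1 read). Libraries were divided by median-ratio factors over 10049 nuclear genes (1.05 to 1.2 in knockouts, 0.823 to 0.947 in controls). Genes with at least 1 FPKM in at least 3 of 14 samples (13079) were fitted as log2(scaled FPKM + 1) with limma 3.58.1 (R 4.3.3; lmFit, eBayes with trend), a mean for each of the 4 groups, and Benjamini-Hochberg adjustment over all genes; the script was tested on simulated data. Each library came from a separate animal, groups were taken from the genotype and temperature labels, and no pairing was given. The named genes are the 35 members, Lrpprc, up to 6 called genes of each of 6 pathway lists and up to 2 more by role; Gbp5 and Gbp6 of those lists were unmatched. One gene of the lists is not reported here. Members and lists were chosen with earlier results of these data known. Alternatives covered the pseudocount, filters, scaling, weights, voom, GC content, the R-identifier controls and each animal left out. Tables and figures were made with Python 3.11.15, pandas 2.3.3, scipy 1.17.1 and matplotlib 3.10.9.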

Additional observations from a re-analysis of the deposited data

Results flagged for a closer look

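In the groups of 4 animals, 4 of 70 comparisons of 1 animal with the rest of its group for the 35 genes stood out by Dixon's criterion, and chance flags about 1 in 20. Ddx58 was at 4.76 scaled FPKM in control animal 1 at 22 °C, below the other three at 6.37 to 6.64. Parp9 was at 5.55 in the same animal, below 7.92 to 8.1. Ifit1 was at 1.55 in knockout animal 3 at 22 °C, below 2.68 to 2.75. Dtx3l was at 5.93 in knockout animal 2 at 22 °C, above 4.74 to 4.92. That animal also had the highest macrophage marker sum of its group, and the part of those cells in the value was not tested. No group of 3 was examined in this way.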

How the results depend on the processing

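No paired analysis was possible because the labels give individual animal identifiers and no number, litter or batch shared between groups. FPKM as deposited put the median difference of all genes between genotypes at 0.24 at 22 °C and 0.31 at 30 °C, and on that scale 2 members passed between genotypes at 22 °C (Tmem173 and Isg15, both higher) and 8 at 30 °C (Ddx58, Ifih1, Dhx58, Ifit2, Oas1a, Oas2, Ifi44 and Isg15, all higher). Setting libraries to the same total over nuclear genes put it at 0.12 and 0.19, with 0 members at 22 °C and 1 at 30 °C, Oas1a, in place of Ifi27. With sample weights 1 passed at 22 °C (Ifi27, lower), 5 at 30 °C (Ifit2, Oas1a, Oas2 and Ifi44 higher, Ifi27 lower) and 20 between temperatures in controls (19 lower). At 30 °C 0 passed with quantile normalization, with no filter, in a fit to the compared groups alone, at a log2 fold change of at least 1, or without the highest-macrophage animal of each 30 °C group. Leaving out 1 animal gave 0 to 0 at 22 °C, 0 to 3 at 30 °C (3 without knockout animal 2; 0 without knockout animal 1 or 3 or control animal 2), 7 to 16 between temperatures in controls (7 without control animal 3 at 30 °C), 15 to 22 in knockouts and 0 to 0 for the difference between the knockout effects. At a log2 fold change of at least 1, 10 members passed between temperatures in knockouts. The shares of all genes that passed under the alternatives of this paragraph are not given here. These member counts therefore have no background beside them. No called difference of a member changed direction under any alternative run; 63 of 711 estimates at 22 °C and 46 of 645 at 30 °C changed sign without passing. Depth limits Mb21d1, Oas3, Ifi44, Zbp1 and Oas1a, whose levels at 22 °C were about 1 FPKM or less. With 3 or 4 animals a group, intervals of the widest-ranging members still allow a 2-fold change at 30 °C.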
